A study of Mus musculus with 12 samples.

Results

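The proteasome subunit genes were compared between thymocytes of AND-TCR–transgenic mice and thymocytes of C57BL/6 mice. Members were all probe sets, apart from Affymetrix controls, whose only annotated gene symbol starts with Psma, Psmb, Psmc, Psmd, Psme or Psmf. The inducible catalytic subunits Psmb8, Psmb9 and Psmb10 were left out. This rule took 75 of 36701 probe sets and 42 of 15964 genes that have a probe set with a single symbol. U74Av2 held 50 of the member probe sets, U74Bv2 held 8 and U74Cv2 held 17. It also took Psmc3ip, a meiotic recombination factor, and Psme3ip1, a partner of Psme3, which share the letters but are not subunits. Another 3 probe sets are annotated to Psme2b and Psme2 together and were not members, so Psme2 is not analysed here.

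The material was total thymocytes of adult mice. AND-TCR–transgenic mice express a transgenic TCR that is specific for a peptide on MHC class II, and their thymocytes were positively selected on the H-2b background. C57BL/6 mice, without the transgene, were the wild type. There were 2 hybridizations per group on each of the 3 array types, 12 arrays in all, and the labels do not give the number, sex or age in weeks of the mice.

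The proteasome is the protease that degrades proteins tagged with ubiquitin. Its core is a barrel of stacked rings, with outer rings of alpha subunits that gate the entrance and inner rings of beta subunits, of which Psmb5, Psmb6 and Psmb7 carry the constitutive active sites. A regulatory particle caps the barrel. Its base holds a ring of ATPases that unfold substrates, and its lid removes ubiquitin. Activators of the Psme family can take the place of this cap. In the thymus the beta subunits are also known for making peptides for MHC class I, with the immunoproteasome subunits in hematopoietic cells and with Psmb11 in cortical epithelial cells.

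The detection limit, 2 SDs of the background noise, was an intensity of 421 for U74Av2, 869 for U74Bv2 and 1579 for U74Cv2 arrays. A probe set was tested where both arrays of at least 1 group were above it. Of the 75 member probe sets, 42 were above the limit on all 4 arrays of their type, 10 on 1 to 3 arrays and 23 on none. The test covered 44 member probe sets, which stand for 36 genes. All values below are scaled intensities, and fold changes are AND-TCR transgenic over C57BL/6 on the log2 scale with values under the limit set to it.

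No difference in a transcript of the core, the base, the lid or the activators passed the test. In limma with Benjamini-Hochberg adjustment, 0 member probe sets were called at an adjusted p under 0.05, against 1.05% of all tested probe sets, 0.483% higher and 0.568% lower. With the hybridization number as a replicate block it was again 0 members, against 2.38% of all tested probe sets. At an unadjusted p under 0.05 there were 0 members higher and 1 lower, Psma6, while 14% of all tested probe sets passed that threshold, 7.47% higher and 6.51% lower. The lowest adjusted p of a member was 0.181. The fitted log2 fold changes of the 44 member probe sets ran from -0.55 to 0.65 with a median of -0.08, and those of all 12844 tested probe sets ran from -4.42 to 3.32 with a median of 0.02. None of the 44 reached a 2-fold difference, which 4.34% of all tested probe sets did. These p-values measure the spread between hybridizations. The paper states that 2 independent experiments were done. Neither it nor the labels say that the hybridizations came from separate mice, so this spread may be technical.

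A call that is missed does not show that levels were alike, so the intervals were read as well. For 31 of the 44 member probe sets (70.5%) the 95% interval of the difference lay within 2-fold in both directions, as it did for 54.7% of all tested probe sets. Taken by gene, at the tested probe set with the highest mean, 29 of 36 intervals did so (80.6%). The median standard error was 0.231 for members and 0.278 for all tested probe sets. Members were also brighter, with a median log2 intensity of 11.53 against 11.05, and the part of brightness in these shares was not tested. The share by gene, at the brightest tested probe set of each, has no matching background here. The other members, among them Psma1, Psmb6, Psmd12, Psme3 and Psme4, had intervals that reached past 2-fold on at least 1 side. Of the 3 activators only Psme1 had an interval within 2-fold.

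**Figure D1:**
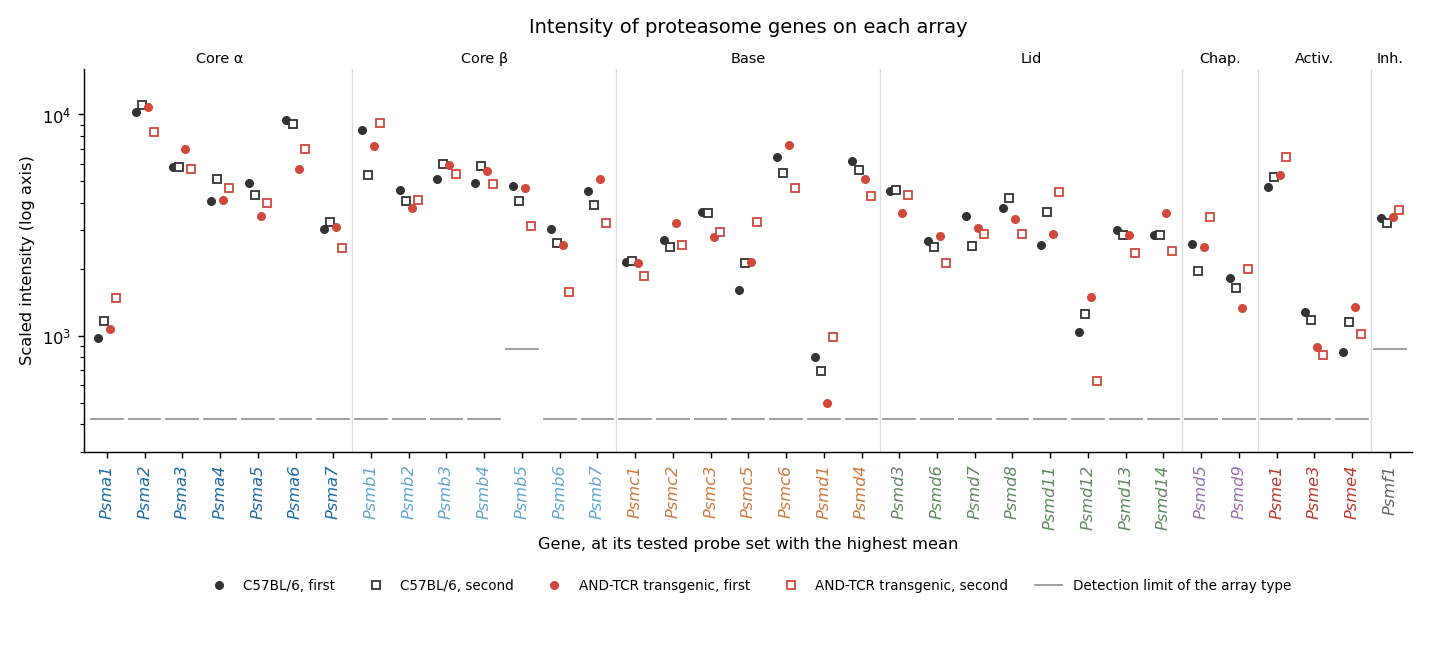
Scaled intensity on a log axis of the 35 tested subunit, chaperone, activator and inhibitor genes, each at its tested probe set with the highest mean, on the 4 arrays of its type. Grey lines mark the detection limit, 421 on U74Av2 and 869 on U74Bv2, and all points lie above it. The points of both groups intermingle for most genes. Psma6 and Psme3 are among the genes with both C57BL/6 arrays above both AND-TCR–transgenic arrays, and Psmc5, Psme1 and Psmf1 have the reverse.

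The groups did not overlap in 14 of the 44 member probe sets (31.8%), against 44.4% of all tested probe sets. Of these 14, AND-TCR–transgenic thymocytes were the lower group in 10, where the background in that direction was 21.4%, and the higher group in 4, where it was 23%. The direction of the difference was the same in the first and in the second hybridizations for 20 of 44 member probe sets (45.5%), against 57.7% of all tested probe sets.

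Promoter sequences are shown for the gene with the lowest p in the alpha ring, the beta ring, the base, the lid and the activators. None of these genes was called. They are RefSeq sequences of GRCm38.p6 from 120 bases before to 19 bases after the annotated start, 140 bases each. Capitals mark CCAAT on either strand, the box bound by NF-Y, or TGACNNNGC on either strand, the core of the antioxidant response element read by Nfe2l1 and Nfe2l2.
Psma6, chr12:55384102-55384241, + strand: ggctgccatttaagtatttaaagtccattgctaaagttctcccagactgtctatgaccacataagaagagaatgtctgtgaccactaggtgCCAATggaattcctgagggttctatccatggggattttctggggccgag
Psma6, further start, chr12:55398705-55398844, + strand: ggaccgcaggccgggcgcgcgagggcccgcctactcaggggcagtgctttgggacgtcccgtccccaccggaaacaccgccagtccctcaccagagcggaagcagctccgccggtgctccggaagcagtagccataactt
Psmb6, chr11:70525237-70525376, + strand: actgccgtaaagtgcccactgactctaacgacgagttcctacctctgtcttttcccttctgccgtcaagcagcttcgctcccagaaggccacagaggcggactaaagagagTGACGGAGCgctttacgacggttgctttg
Psmd4, chr3:95042595-95042734, − strand: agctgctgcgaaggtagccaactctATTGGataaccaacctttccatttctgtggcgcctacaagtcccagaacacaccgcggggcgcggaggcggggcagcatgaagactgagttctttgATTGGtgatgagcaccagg
Psmd8, chr7:29180654-29180793, − strand: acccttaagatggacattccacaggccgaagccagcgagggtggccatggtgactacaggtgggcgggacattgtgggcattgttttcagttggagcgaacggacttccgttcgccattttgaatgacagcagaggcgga
Psme3, chr11:101316093-101316232, + strand: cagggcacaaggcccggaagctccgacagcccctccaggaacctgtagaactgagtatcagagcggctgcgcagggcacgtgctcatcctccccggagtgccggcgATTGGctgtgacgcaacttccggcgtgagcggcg

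The table of promoters holds 35 of the 42 member genes, each as 300 bases around the start. CCAAT on either strand was found in 15 of the 35 (42.9%), against 41.1% of 27025 genes in the table. Psmc3ip and Psme3ip1, which are not subunits, are among these 15. TGACNNNGC was found in 6 (17.1%), against 14.0% of all genes, and TTCNNNGAA, the half-site pair read by STAT factors, in 1 (2.86%), against 9.55%. No matches of different motifs overlapped in the member promoters, and a match is a description of the letters only. The 42 genes lie on 16 chromosomes, with 9 of them on chromosome 11.

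Among the alpha subunits, which form the outer rings and gate the core, the median log2 fold change over 7 tested genes was -0.17. Psma6 read 9405 and 9049 in the first and second C57BL/6 hybridizations and 5654 and 6980.5 in the AND-TCR–transgenic ones. Both C57BL/6 arrays were above both AND-TCR–transgenic arrays, with means of 9227 ± 252 and 6317 ± 938 (SD, n = 2 each). The log2 fold change was -0.55 with a standard error of 0.16, a 95% interval from -0.92 to -0.19 and a limma adjusted p of 0.181.

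Psma5 read 4904 and 4333 in C57BL/6 and 3470.45 and 3989.8 in AND-TCR–transgenic thymocytes. Its groups did not overlap either, and its log2 fold change of -0.31 ± 0.17 (SE) had an adjusted p of 0.495 in limma. Psma2 read 10220.5 and 11079 in C57BL/6 and 10769.5 and 8336 in AND-TCR–transgenic thymocytes. The second AND-TCR–transgenic array was the lowest and the other 3 lay close together, with a log2 fold change of -0.17.

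For Psma3 the probe sets disagreed in sign. Probe set 92544_f_at read 5765 and 5820.5 in C57BL/6 and 6987 and 5697 in AND-TCR–transgenic thymocytes, a log2 fold change of 0.12. Probe set 135435_at of U74Cv2 read 3498 and 5622 in C57BL/6 and 4883 and 2512 in AND-TCR–transgenic thymocytes, a log2 fold change of -0.34, and its groups overlapped. The last, 166835_at of U74Cv2, read 3086 and 1155 in C57BL/6 and 3488 and 3448 in AND-TCR–transgenic thymocytes. The second C57BL/6 array was under the limit there and was set to 1579, which gave a log2 fold change of 0.65 with an interval from -0.37 to 1.67. The ending _f_at marks probes that match several members of a sequence family, so such a reading may include related transcripts. Psmb4, Psmb7 and Psmd12 were tested only by such probe sets. Psma1, Psma4 and Psma7 overlapped between groups, with log2 fold changes of 0.24, -0.06 and -0.18.

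The beta subunits had a median log2 fold change of -0.04 over 7 tested genes. Psmb6, the caspase-like active site, read 3034 and 2629.8 in C57BL/6 and 2568 and 1586 in AND-TCR–transgenic thymocytes. There was no overlap, and the first AND-TCR–transgenic array lay just under the second C57BL/6 array. Its log2 fold change was -0.49 ± 0.28 (SE) with an adjusted p of 0.512 in limma and an interval from -1.15 to 0.18. Psmb7, the trypsin-like active site, read 4499 and 3909 in C57BL/6 and 5104 and 3248 in AND-TCR–transgenic thymocytes. Its AND-TCR–transgenic readings enclosed those of C57BL/6, and the log2 fold change was -0.04.

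Psmb5, the chymotrypsin-like active site, had 3 tested probe sets that disagreed in sign. Probe set 109821_f_at of U74Bv2 read 4743 and 4076 in C57BL/6 and 4669 and 3149.7 in AND-TCR–transgenic thymocytes, and 101558_s_at read 1948 and 2448 against 2499 and 1554. In both, the second AND-TCR–transgenic array was the lowest of the 4, with log2 fold changes of -0.20 and -0.15. Probe set 160559_at read 581 and 424 in C57BL/6 and 520.1 and 1012 in AND-TCR–transgenic thymocytes, so that the second AND-TCR–transgenic array was the highest there. Its log2 fold change was 0.55 with an interval from -0.35 to 1.45.

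The noncatalytic beta subunits overlapped between the groups in all tested probe sets. Psmb1 read 8544 and 5332 in C57BL/6 and 7212 and 9154 in AND-TCR–transgenic thymocytes by 160875_at. By 98113_at it read 5653 and 5719 against 5908 and 5611, with the AND-TCR–transgenic readings on either side of the C57BL/6 ones. The log2 fold changes of these probe sets were 0.27 and 0.02, with intervals from -0.30 to 0.84 and from -0.32 to 0.36. Psmb2 read 4575 and 4046 in C57BL/6 and 3765 and 4107 in AND-TCR–transgenic thymocytes, with a log2 fold change of -0.13. Psmb3 and Psmb4 had log2 fold changes of 0.03 and -0.04. Psmb4 was read by 98557_f_at, and its other probe sets, 98556_at and 98558_r_at, were not tested.

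**Figure D2:**
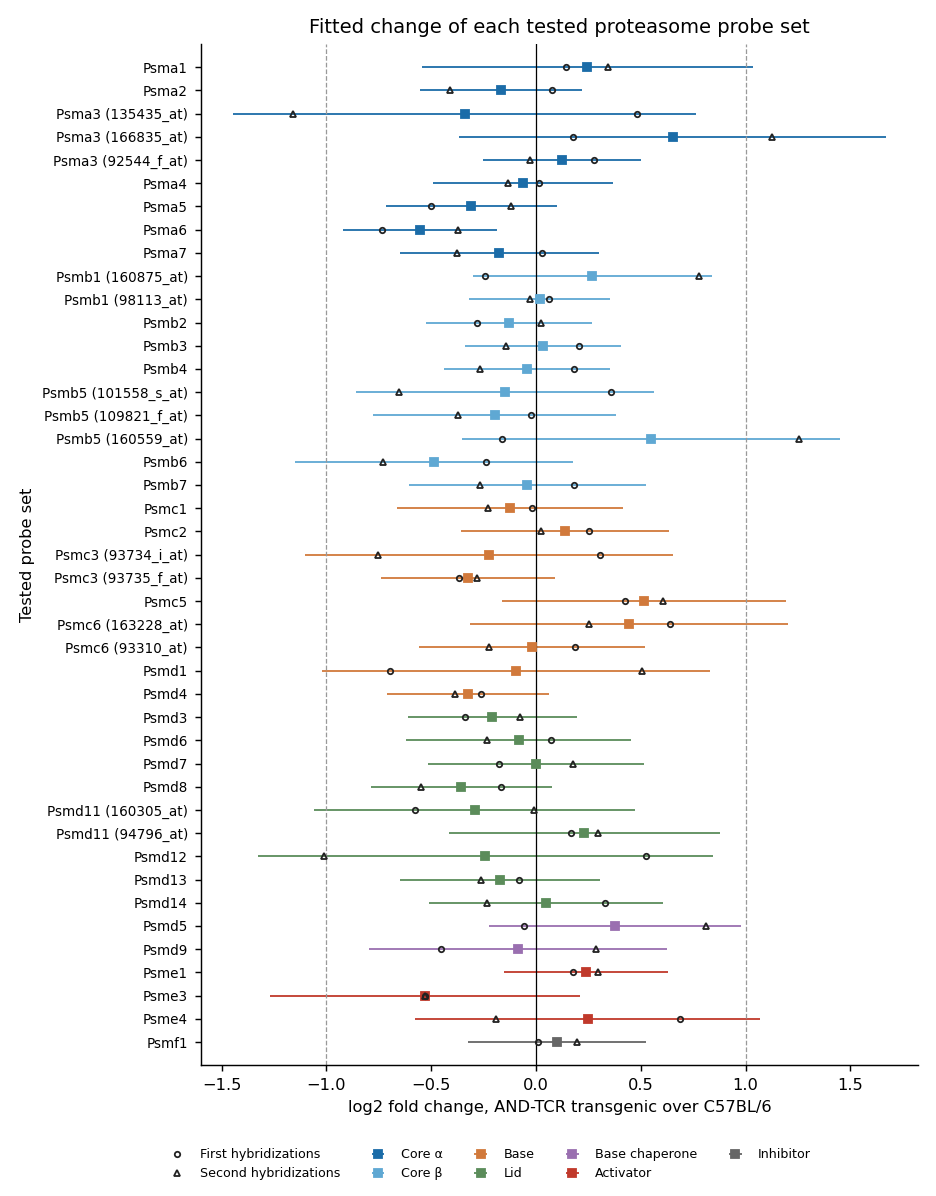
Fitted difference (log2 fold change, AND-TCR transgenic over C57BL/6) for each tested probe set apart from that of Psme3ip1, grouped by subcomplex, as squares with 95% intervals. Open circles and triangles give the first and the second hybridizations alone, and dashed lines mark 2-fold. The interval of Psma6, from -0.92 to -0.19, is the only plotted interval that leaves out 0, and no square reaches a dashed line.

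In the base, which unfolds substrates and feeds them to the core, the median log2 fold change was -0.10 over 7 tested genes. Psmd4, a ubiquitin receptor, read 6141 and 5623 in C57BL/6 and 5123 and 4296 in AND-TCR–transgenic thymocytes. Every C57BL/6 array was above every AND-TCR–transgenic one, and the log2 fold change was -0.32 ± 0.16 (SE) with an adjusted p of 0.439 in limma. Psmc3, a ring ATPase, read 3621 and 3602 in C57BL/6 and 2805 and 2961 in AND-TCR–transgenic thymocytes by 93735_f_at. These groups did not overlap, and the hybridizations within each lay close together. Its log2 fold change was -0.33 ± 0.18 (SE) with an adjusted p of 0.477 in limma, and 93734_i_at, where the groups overlapped, gave -0.22.

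Psmc5, another ATPase, differed in the other direction. It read 1613 and 2143 in C57BL/6 and 2164 and 3259.7 in AND-TCR–transgenic thymocytes. The first AND-TCR–transgenic array was only just above the second C57BL/6 array, and the log2 fold change was 0.51 ± 0.29 (SE) with an adjusted p of 0.493 in limma. Psmc6 read 6423 and 5457 in C57BL/6 and 7303 and 4673 in AND-TCR–transgenic thymocytes by 93310_at, a log2 fold change of -0.02. On U74Bv2, 163228_at of Psmc6 read 590.4 and 1382 in C57BL/6 and 1352 and 1646 in AND-TCR–transgenic thymocytes, with the first C57BL/6 array under the limit and set to 869. Its groups overlapped, with a log2 fold change of 0.44. Psmc1, Psmc2 and Psmd1, a scaffold of the base, had log2 fold changes of -0.12, 0.14 and -0.10.

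In the lid, which holds the deubiquitinase Psmd14 on a scaffold of other subunits, the median log2 fold change was -0.13 over 8 tested genes. Psmd8 read 3794 and 4215 in C57BL/6 and 3379.8 and 2884 in AND-TCR–transgenic thymocytes. Its groups did not overlap, and the log2 fold change of -0.36 ± 0.18 (SE) had an adjusted p of 0.448 in limma. Psmd3 read 4534 and 4561 in C57BL/6 and 3588 and 4320.2 in AND-TCR–transgenic thymocytes. Both C57BL/6 arrays were again above both AND-TCR–transgenic arrays, with a log2 fold change of -0.21.

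Psmd13 read 3020.1 and 2853 in C57BL/6 and 2852 and 2377 in AND-TCR–transgenic thymocytes. The second C57BL/6 and the first AND-TCR–transgenic array were only just apart, and the log2 fold change was -0.17. Psmd11, a scaffold subunit at the contact between lid and base, had probe sets of opposite sign. By 160305_at it read 1605 and 1704 in C57BL/6 and 1075 and 1695 in AND-TCR–transgenic thymocytes, and by 94796_at 2573 and 3637 against 2885 and 4466. The log2 fold changes were -0.29 and 0.23, and the groups overlapped in both. Psmd6, Psmd7, Psmd12 and Psmd14 also overlapped, with log2 fold changes of -0.08, 0.001, -0.24 and 0.05.

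The base chaperones assemble the ATPase ring and leave before the particle is complete. Psmd5 read 2613 and 1957 in C57BL/6 and 2509 and 3433 in AND-TCR–transgenic thymocytes, a log2 fold change of 0.38. Psmd9 read 1835 and 1648 in C57BL/6 and 1338 and 2011 in AND-TCR–transgenic thymocytes, a log2 fold change of -0.08. In both the groups overlapped, and in both the second AND-TCR–transgenic array was the highest of the 4.

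The activators had log2 fold changes of both signs, and their median of 0.24 stands on 3 genes. Psme1, a subunit of the interferon-inducible activator, read 4705 and 5242 in C57BL/6 and 5326 and 6435 in AND-TCR–transgenic thymocytes. The groups did not overlap, and the log2 fold change was 0.24 ± 0.17 (SE) with an adjusted p of 0.596 in limma. Psme3, which forms the nuclear activator, read 1287 and 1178 in C57BL/6 and 892 and 816 in AND-TCR–transgenic thymocytes. C57BL/6 was the higher group without overlap, and the log2 fold change was -0.53 in each pair of hybridizations. Its interval reached from -1.27 to 0.21, with an adjusted p of 0.522 in limma.

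Psme4, a single-chain activator, read 842 and 1159 in C57BL/6 and 1356 and 1015 in AND-TCR–transgenic thymocytes. Its groups overlapped, with a log2 fold change of 0.25. Psmf1, an inhibitor of the core, read 3416 and 3226 in C57BL/6 and 3440.3 and 3691 in AND-TCR–transgenic thymocytes on U74Bv2. These did not overlap, and the log2 fold change was 0.10 with an interval from -0.32 to 0.53. Psme3ip1, which is no subunit, had a log2 fold change of -0.07.

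Not tested were 31 member probe sets, of which 22 belong to genes with another probe set that was. The other 9 are all the probe sets of 6 genes. Psmc4, a ring ATPase, Psmd2, the other scaffold of the base, the chaperone Psmd10, the alpha subunit Psma8, which is known from the testis, and Psmc3ip were under the limit on every array. Psmb11, the beta subunit of cortical epithelial cells, read 72.2 and 366 in C57BL/6 and 863 and 1239 in AND-TCR–transgenic thymocytes. Only the last reading was above the limit of 869, so its groups have no tested difference. Of the 9 genes listed for thymic epithelium, 3 (Ccl25, Epcam and Ly75) were tested, 0 were called, and Foxn1, Aire, Krt5, Krt8, Krt14 and Krt18 were not tested.

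The subcomplexes were then compared on each array, as the median over genes of the log2 difference from the gene's mean over its 4 arrays. The core had medians of 0.08 and 0.08 in the C57BL/6 hybridizations and of 0.07 and -0.10 in the AND-TCR–transgenic ones. The base had 0.13 and -0.05 against -0.04 and -0.12, and the lid had 0.10 and 0.08 against 0.05 and -0.23. The activators had -0.20 and 0.11 against -0.02 and -0.09. The second AND-TCR–transgenic hybridization was the lowest of the 4 for core, base and lid, and the first lay between the C57BL/6 arrays for the base and just under them for core and lid.

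**Figure D3:**
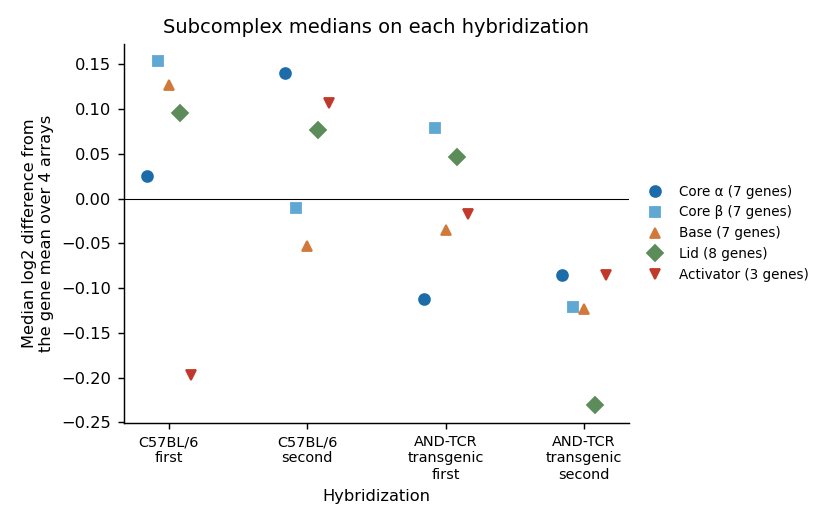
Median over the tested genes of a subcomplex of the log2 difference from the gene's own mean over 4 arrays, for each of the 4 hybridizations. Beta ring, base and lid reach their lowest point in the second AND-TCR–transgenic hybridization, with the lid at -0.23, and the alpha ring is below 0 in both AND-TCR–transgenic hybridizations.

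These medians depend on single hybridizations, and without 1 of them 23 of the 44 member probe sets change the sign of their log2 fold change. Without the second AND-TCR–transgenic hybridization the core median was 0.01 and the lid median 0.003, and without the first C57BL/6 hybridization the base median was 0.01 and the activator median 0.02. Taken by hybridization, the median log2 fold change of the 44 member probe sets was 0.05 in the first and -0.17 in the second, and over all tested probe sets it was -0.01 and 0.04. The distance between the hybridizations of a group had a median of 0.191 on the log2 scale for members in C57BL/6, below the 0.252 of all tested probe sets. In AND-TCR–transgenic thymocytes it was 0.336 for members, above the 0.289 of all tested probe sets. Over the 39 member probe sets tested on U74Av2, the hybridizations of C57BL/6 correlated with an r of 0.965 and those of AND-TCR–transgenic thymocytes with an r of 0.868. Over all 5573 tested probe sets of U74Av2 the values were 0.942 and 0.939. These are descriptions across probe sets of shared libraries and carry no test.

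**Figure D4:**
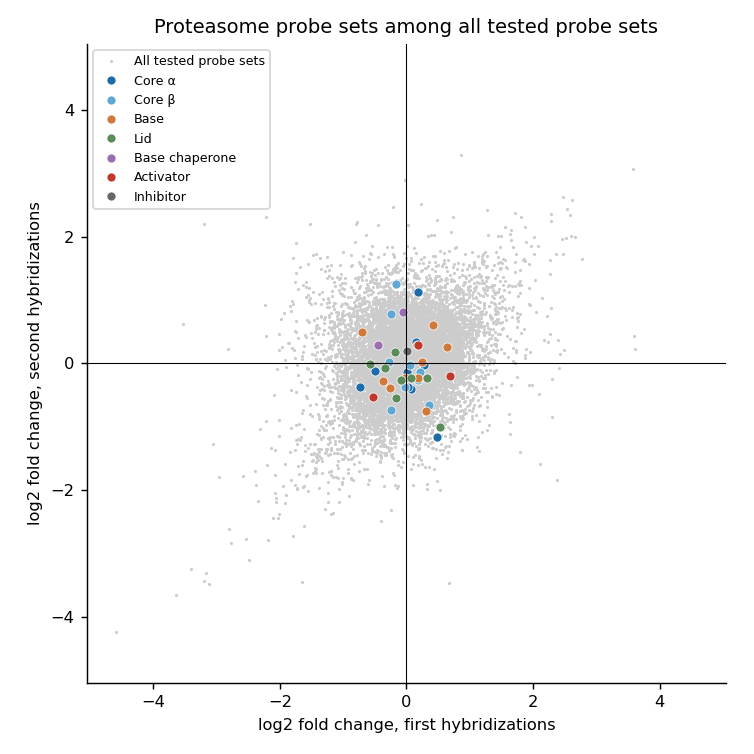
Log2 fold change, AND-TCR transgenic over C57BL/6, within the first hybridizations (horizontal axis) and in the second (vertical axis) for all 12844 tested probe sets (grey) and the tested proteasome probe sets apart from that of Psme3ip1 (colored by subcomplex). None of the proteasome probe sets is past 2-fold on the horizontal axis and 4 are on the vertical one, namely Psma3 by 135435_at and 166835_at, Psmb5 by 160559_at and Psmd12, and 20 have the same sign on both axes.

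The immunoproteasome subunits, which replace the constitutive active sites, were set beside them. Psmb10 read 3652 and 3386 in C57BL/6 and 4745 and 5061 in AND-TCR–transgenic thymocytes. The groups did not overlap, and its log2 fold change was 0.48 ± 0.16 (SE) with a limma adjusted p of 0.253. Psmb9 read 2458 and 2984 in C57BL/6 and 3423 and 3202 in AND-TCR–transgenic thymocytes, without overlap, and its log2 fold change was 0.29 (limma adjusted p = 0.586). Psmb8 read 14236 and 15037 against 14193 and 14255, a log2 fold change of -0.04. None of the 3 passed the test.

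The log2 fold change of an immunoproteasome subunit minus that of its constitutive counterpart was then taken in each pair of hybridizations. For Psmb9 minus Psmb6 it was 0.72 and 0.83, with a mean of 0.78 ± 0.08 (SD, n = 2). For Psmb10 minus Psmb7 it was 0.20 and 0.85, and for Psmb8 minus Psmb5, at the Psmb5 probe set with the highest mean, 0.02 and 0.29. All 6 differences were above 0, but the last pair sets Psmb8 on U74Av2 against Psmb5 on U74Bv2. With the Psmb5 probe sets of U74Av2, its differences were -0.36 and 0.58 by 101558_s_at, with a mean of 0.11. By 160559_at they were 0.16 and -1.33, with a mean of -0.59. With 2 values each these differences were given no test.

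**Figure D5:**
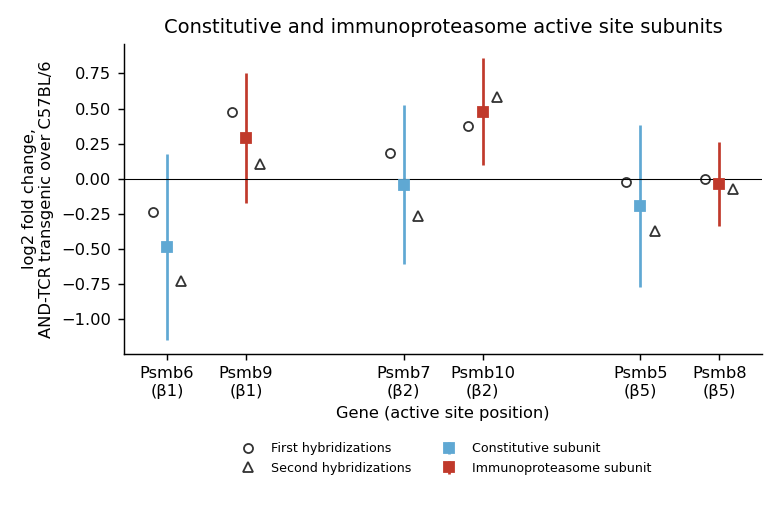
Fitted difference (log2 fold change, AND-TCR transgenic over C57BL/6) of the constitutive and the immunoproteasome subunit of each active site, as squares with 95% intervals, and the first and second hybridizations alone as open symbols. Psmb9 and Psmb10 have positive values of 0.29 and 0.48, Psmb6 has -0.49, and Psmb7, Psmb5 and Psmb8 lie between -0.20 and -0.04.

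Other genes of the pathway also gave 0 calls in either direction. Sem1, the small lid subunit with another kind of symbol, read 8949 and 9781 in C57BL/6 and 7057 and 6561 in AND-TCR–transgenic thymocytes. The groups did not overlap, and its log2 fold change was -0.46 ± 0.14 (SE) with a limma adjusted p of 0.204. Of the core assembly factors 4 were tested, and Pomp had a log2 fold change of 0.19. Psmg2 had 0.31, with the first C57BL/6 array under the limit and set to it. Of the enzymes and adaptors bound to the proteasome 6 were tested, and Txnl1, a thioredoxin-like protein of the regulatory particle, read 571 and 536 in C57BL/6 and 877 and 1165 in AND-TCR–transgenic thymocytes. The readings did not overlap, and the log2 fold change was 0.87 ± 0.31 (SE) with an adjusted p of 0.282 in limma. Ecpas, which tethers the core to the regulatory particle, had a log2 fold change of 0.48.

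Among the ubiquitin shuttles and the partners of the segregase Vcp 9 were tested, and for Ufd1 the log2 fold change was -0.44 (limma adjusted p = 0.531). For the ubiquitin-activating enzyme Uba6, the only tested gene of its list, it was -0.16. Of 10 tested transcription factors and their processing enzymes, the list that holds the activators of proteasome genes, Mafg, a small partner of Nfe2l1 and Nfe2l2, read 1047 and 1456 in C57BL/6 and was under the limit of 869 on both AND-TCR–transgenic arrays, at least 1.42-fold lower with an adjusted p of 0.359 in limma. Ngly1, which processes Nfe2l1, had a log2 fold change of 0.23, and Nfe2l1 and Nfe2l2 had 0.34 and 0.26. None of the list passed the test.

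On the same arrays, markers of thymocyte maturation differed. Their lists were chosen with earlier results of these data known. The paper had already reported Rag1, Rag2, Ccr7 and Gimap4 (its IAN1) from these arrays. The counts are therefore descriptions and no independent check. Of 9 tested genes of double-positive thymocytes 6 fell in AND-TCR–transgenic thymocytes. The intensities of all 9, those not called included, summed to 171205 and 168805 in C57BL/6 and to 56339 and 65507 in AND-TCR–transgenic thymocytes. Of 8 tested genes of mature single-positive thymocytes 5 rose. Of those not called, Ccr7 and S1pr1 had log2 fold changes of 2.01 and 0.68, and Il7r had -0.44. The sums over the 9 listed genes with a probe set, the untested Klf2 included, were 25749 and 24020 in C57BL/6 against 81701 and 76095. Of 10 tested general thymocyte genes 2 fell, Cd8a and Cd8b1, and Cd8b1 is also among the 6 double-positive genes that fell. Cd4 was also lower, and Cd247 and Zap70 were higher, at an unadjusted p under 0.05. Of 19 tested cell cycle genes 0 were called and 9 were lower at an unadjusted p under 0.05. With the untested Mcm6 and Tyms, the intensities of 21 cell cycle genes summed to 88349 and 89828 against 66294 and 73212. Of the tested genes of B cells (5), macrophages (6), antigen-presenting cells (5) and red blood cells (1), 0 were called. At an unadjusted p under 0.05, 2 genes of B cells and 1 of red blood cells were lower and 3 of antigen-presenting cells were higher. In these lists Pax5 of B cells, at 0.56, and Itgax of antigen-presenting cells, at -0.37, had log2 fold changes of the other sign. The part of these differences in the values of the proteasome genes was not tested, and in total thymocyte RNA fewer cells of a type and less RNA per cell cannot be told apart.

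Other features moved with the groups. The fluidics module used for washing was 2 for every C57BL/6 array and 4 for every AND-TCR–transgenic array, so module and group cannot be told apart. First and second hybridizations were run on different days, each day with both groups. They also differed in chip lot on U74Av2 and in fluidics station on U74Cv2, in both groups alike. On U74Av2, Xist read 2878 and 3001 in C57BL/6 and was under the limit in AND-TCR–transgenic thymocytes, and Y-linked Eif2s3y, at 1649 and 1529 in the latter, was under it in C57BL/6. On U74Bv2, Y-linked Kdm5d read 2897 and 2868 in AND-TCR–transgenic thymocytes by 1 probe set and was under the limit in C57BL/6, and its other probe sets were under the limit on every array. Another Xist probe set, on U74Bv2, was above the limit only on the second AND-TCR–transgenic array, at 1190.4. The labels do not give the sex of the mice, and a difference in sex and the transgene cannot be told apart here. The ratio of the 3′ to the 5′ control probe set lay between 0.707 and 1.20 for Gapdh and between 1.20 and 1.44 for Actb over the 12 arrays. On U74Bv2 the Gapdh ratios were 0.913 and 0.939 in C57BL/6 and 0.707 and 0.733 in AND-TCR–transgenic thymocytes. The part of these features in the values of the proteasome genes was not tested.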

How the data were processed

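Total RNA of thymocytes had been labeled with biotin by the authors, hybridized to Affymetrix U74Av2, U74Bv2 and U74Cv2 arrays and analyzed with Microarray Suite 4.0. Deposited were linear intensities, negative values included, and the authors had scaled the arrays to trimmed means of 1000.4 to 1000.9. Neither the kind of value nor the scaling target is given in the sources used. The deposited experiment headers hold other values (fluidics module, day, chip lot).

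Arrays of a type were brought to equal trimmed means (2% dropped at each end). The noise SD was 1.4826 times the median absolute value of the negative intensities. Values under 2 noise SDs were set to that limit, and probe sets above it on both arrays of at least 1 group entered the test in limma 3.58.1 (R 4.3.3, lmFit, eBayes with a trend), 1 fit per array type, with p-values adjusted over all 12844 at a threshold of 0.05. The number of arrays limits the precision, and with 2 against 2 an exact permutation test cannot pass 0.05. Same-numbered hybridizations share a day, but their deviations correlated between groups with an r of 0.035, -0.119 and -0.232 on the 3 array types. Tables and figures were made with Python 3.11.15, pandas 2.3.3 and matplotlib 3.10.9.

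Genes come from the platform annotation, and all 42 matched RefSeq of GRCm38.p6 by gene ID. Per-array values were given for up to 4 genes of each subcomplex with the smallest p and for genes whose probe sets differ in sign, and up to 2 genes were named of each pathway list. Nfe2l1 and Nfe2l2 were added after their values were seen. The members and lists were chosen with earlier results of these data known. Alternatives were other floors, filters, normalization and prior variance, a replicate block, the mean over a gene's probe sets and leaving out each hybridization.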

Additional observations from a re-analysis of the deposited data

How the results depend on the processing

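The count of called member probe sets was 0 higher and 0 lower under all alternatives, and the crossed pairing, added after seeing the data, also gave 0 members, with 229 higher and 226 lower calls over all probe sets. With the replicate block, 306 of all tested probe sets (2.38%) were called in place of 135, and the lowest adjusted p of a member was 0.0834, that of Psma6, whose adjusted p lay between 0.0834 and 0.567 over its alternatives in limma. The block changed no member's call. Calls over all probe sets, higher and lower, were 130 and 140 with a floor at 1 noise SD, 0 and 0 at 4 noise SDs, 129 and 127 with all 4 arrays above the limit, 414 and 402 with no filter, 86 and 93 after quantile normalization and 1 and 9 with no trend. Fits without 1 hybridization leave a single array in a group, so that the absence of member calls there says nothing about stability. The same holds for the floor at 4 noise SDs, where no probe set was called. With no trend so few were called that the absence of members says little. At an unadjusted p under 0.05, 0 to 2 members were higher and 0 to 3 lower over the alternatives.

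Leaving out each hybridization in turn gave medians from -0.18 to 0.01 for the core, -0.22 to 0.01 for the base, -0.26 to 0.003 for the lid and 0.02 to 0.32 for the activators. A floor at 4 noise SDs moved the base median to -0.019 and the lid median to -0.054, and the mean over a gene's probe sets moved the core median to -0.052. Of 482 log2 fold changes of the 44 tested member probe sets under alternatives, 445 kept their direction, 36 turned and 1 was 0 (Psmc6 by 163228_at with a floor at 4 noise SDs). With all hybridizations kept, 2 turned: Psmd1 to 0.11 with that floor and Psmd7 to -0.011 after quantile normalization. The others turned when 1 hybridization was left out, in 23 probe sets.

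In the core these ranges were -0.35 to 0.017 for Psma2, -0.82 to 0.14 for Psma3 by 135435_at and -0.024 to 0.27 by 92544_f_at, -0.23 to 0.10 for Psma4, -0.072 to 0.61 for Psmb1 by 160875_at and -0.019 to 0.055 by 98113_at, -0.079 to 0.14 for Psmb3, -0.17 to 0.081 for Psmb4, -0.49 to 0.19 for Psmb5 by 101558_s_at and -0.48 to 0.087 by 109821_f_at, and -0.37 to 0.28 for Psmb7. In the base they were -0.027 to 0.30 for Psmc2, -0.67 to 0.22 for Psmc3 by 93734_i_at, -0.34 to 0.30 for Psmc6 by 93310_at and -0.59 to 0.40 for Psmd1. In the lid they were -0.29 to 0.12 for Psmd6, -0.22 to 0.23 for Psmd7, -0.62 to 0.035 for Psmd11 by 160305_at and -0.085 to 0.55 by 94796_at, -0.87 to 0.39 for Psmd12 and -0.23 to 0.33 for Psmd14. For Psmd9 the range was -0.38 to 0.21 and for Psme3ip1 -0.38 to 0.24. Of the 14 named pathway genes, whose alternatives were added after seeing the data, only Uba6 turned, from -0.36 to 0.049, while Mafg and Psmg2 were 0 with a floor at 4 noise SDs. The cause was not tested. Of 75 member probe sets 31 were not tested, because in neither group were both arrays above the limit. Of these, 22 belong to genes with another probe set that was tested.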
